A study of Homo sapiens with 6 samples.

Results

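The enzymes of the pentose phosphate pathway and of NADPH production were followed in SK-OV3, an established line of human ovarian carcinoma cells, after silencing of the long non-coding RNA PVT1. The set held 9 genes, chosen by symbol from the 59653 genes of the count table: PGLS, PGD, RPIA, RPE, TKT, TALDO1, H6PD, ME1 and IDH1. All 9 had enough counts to be tested, together with 19008 genes in all. The cells, labelled wild type, were transfected for 48 h at 50 nM with a pool of siRNAs against PVT1 (siPVT1) or with a non-targeting pool (siControl), and 3 mRNA libraries were sequenced per group. The comparison asks which transcripts change when PVT1 is lowered. As 1 pool was used, effects of its siRNAs on other RNAs and effects of lower PVT1 cannot be told apart. The labels do not say whether the libraries of a group came from separate cultures, so the p-values measure the spread between these libraries only.

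Each library held between 28383171 and 35059576 counts. Counts are given as normalized counts, that is, scaled by TMM factors to a common library size. PVT1 lay between 3298 and 4090.5 normalized counts in siControl and between 2062 and 2349.7 in siPVT1 (log2 fold change -0.72 ± 0.097 SE, adjusted p = 0.000342), so the target was lowered and not lost. The epithelial keratin KRT8 had between 7808 and 11186 normalized counts in every library and PAX8, a factor of the Müllerian lineage, had 2606 to 2653 in siControl and 4638 to 5855 in siPVT1, while EPCAM was low, at 41.3 to 127. Of 10 epithelial and ovarian carcinoma markers, 5 were higher in siPVT1 and 3 lower, with PAX8 among the former and log2 fold changes of 2.30 for KRT19, 2.94 for MSLN, -0.43 for ERBB2, -0.51 for KRT7 and -1.01 for WT1. Of 10 markers of blood, endothelial and stromal cells, CD3E had 0 counts, PTPRC at most 2 and DCN at most 1 in any library. The summed level of the 10 was 755 to 799 normalized counts in siControl and 1432 to 1831 in siPVT1. CD68, a lysosomal protein abundant in macrophages, made up much of it (548 to 891), while PECAM1 (33.3 to 40.0 against 281 to 326) and COL1A1 (106 to 123 against 499 to 513) were higher in every siPVT1 library. Of the 6 with enough counts for the test 3 were higher (PECAM1, COL1A1 and VWF) and 1 lower (CD14, at most 10 counts in a library). The part of these genes in the results below was not tested. In bulk RNA, fewer cells with a transcript and less of it per cell cannot be told apart. Pairs of siPVT1 libraries differed more from each other than pairs of siControl libraries, by a chi-square value per degree of freedom of 8.62 to 45.3 against 1.75 to 5.67. The largest of these values was that between siPVT1 replicates 1 and 3.

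The pentose phosphate pathway branches from glycolysis at glucose 6-phosphate. Its oxidative branch, to which PGLS (6-phosphogluconolactonase) and PGD (6-phosphogluconate dehydrogenase) belong, releases NADPH and ends in ribulose 5-phosphate. Its non-oxidative branch then makes ribose 5-phosphate for nucleotides through RPIA (ribose 5-phosphate isomerase) and xylulose 5-phosphate through RPE (ribulose-phosphate 3-epimerase), and returns carbon to glycolysis through transketolase (TKT) and transaldolase (TALDO1). H6PD carries out the first oxidative steps inside the endoplasmic reticulum, where its NADPH serves the steroid reductase HSD11B1. Malic enzyme ME1 and isocitrate dehydrogenase IDH1 make NADPH in the cytosol outside the pathway. NADPH is used to regenerate glutathione and thioredoxin and to build fatty acids and sterols. PGD, TKT, TALDO1, ME1 and IDH1 are known targets of the oxidative stress factor NRF2, and PGD, ME1 and IDH1 are also known to respond to the lipid-regulating SREBP factors.

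The 9 genes lie on 6 chromosomes. In GENCODE v44 on GRCh38 PGD spans 10398592 to 10420511 of the plus strand of chromosome 1, with 13 exons in its canonical transcript and a protein of 483 residues, and H6PD lies on the same chromosome and strand from 9234774 to 9271337. IDH1 spans 208236229 to 208266074 of the minus strand of chromosome 2, which also carries RPIA (88691673 to 88750929) and RPE (210002565 to 210022260) on the plus strand. ME1 lies on the minus strand of chromosome 6 from 83210402 to 83431051, TKT on the minus strand of chromosome 3 from 53224712 to 53256052, TALDO1 on the plus strand of chromosome 11 from 747415 to 765012 and PGLS on the plus strand of chromosome 19 from 17511636 to 17521288. Promoters were taken from RefSeq (GRCh38.p14) as 250 bases before and 50 after each start site, and all 9 genes matched, IDH1 with 2 start sites. For PGD, H6PD and IDH1 the whole window lay inside the span given above, so bases before the outer end of these genes were not searched. Since NRF2 binds the antioxidant response element, its core TGACNNNGC, which reads GCNNNGTCA on the other strand, was searched on both strands. The promoters of PGD, RPE, ME1 and IDH1 held a match, 4 of 9 genes, while 13.3% of the 35116 promoters in the table hold one. The units differ, as the 9 genes have 10 promoters and a gene counts if any of its promoters matched. Of the NRF2 targets named above, TKT and TALDO1 held none, while RPE, which held one, was not named as a target. The stretches around these matches are shown because their genes differed in response, with IDH1 higher, PGD and ME1 lower and RPE not called after PVT1 silencing. Each is read 5′ to 3′ along the gene's own strand, and capitals mark the match.
PGD (chr1:10398838-10398897, plus strand, match at -201 to -193 from the start site): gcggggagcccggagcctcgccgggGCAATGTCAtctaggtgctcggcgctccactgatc
RPE (chr2:210002462-210002521, plus strand, match at -151 to -143): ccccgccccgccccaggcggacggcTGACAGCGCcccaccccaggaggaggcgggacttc
ME1 (chr6:83431154-83431213, minus strand, match at -137 to -129): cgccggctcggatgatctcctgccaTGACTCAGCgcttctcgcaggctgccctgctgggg
IDH1 (chr2:208255180-208255239, minus strand, match at -143 to -135): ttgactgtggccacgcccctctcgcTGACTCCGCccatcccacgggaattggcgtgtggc
ME1 held a further match at 12 to 20 after its start site, and part of the IDH1 stretch lies in an exon of the antisense gene IDH1-AS1. A match is a run of letters and not a measured binding site. The sterol response element TCACNCCAC (GTGGNGTGA on the other strand), present in 1.13% of promoters, and the E-box CACGTG, present in 7.26%, had no match in these windows of the 9 genes. The core of the hypoxia response element, ACGTG, whose reverse complement is CACGT and which the E-box contains, was found in PGD and at the other start site of IDH1, against 21.4% of promoters.

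IDH1 rose about 2-fold upon PVT1 silencing, whereas PGD, ME1, RPIA and TALDO1 fell. Of the 9 genes, 4 were lower and 2 higher at an adjusted p under 0.05, while 28.4% of all genes tested were lower and 29.5% higher by this rule. The 6 called genes therefore stand beside 57.9% of all genes tested, and their number is no result about the set. The median log2 fold change of the 9 was -0.11, and that of all genes tested 0.0014. With the fold threshold of the study (a log2 change of 1 or more in either direction) added, 0 were lower and 1, IDH1, was higher, where 9.64% of all genes were lower and 11.8% higher. No alternative setting, DESeq2 and unadjusted p-values included, gave a lower gene past that fold. By range, 1 gene (IDH1) lay higher in all siPVT1 than in all siControl libraries and 4 (PGD, ME1, RPIA and TALDO1) lay lower, where 33.2% and 32.3% of all genes tested do so and 65.6% do either. Scaling by the total count in place of TMM moved the median of all genes to -0.15 and the split of the 9 to 5 lower and 1 higher. Over all genes tested it gave 36.2% lower and 23.6% higher.

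**Figure D1:**
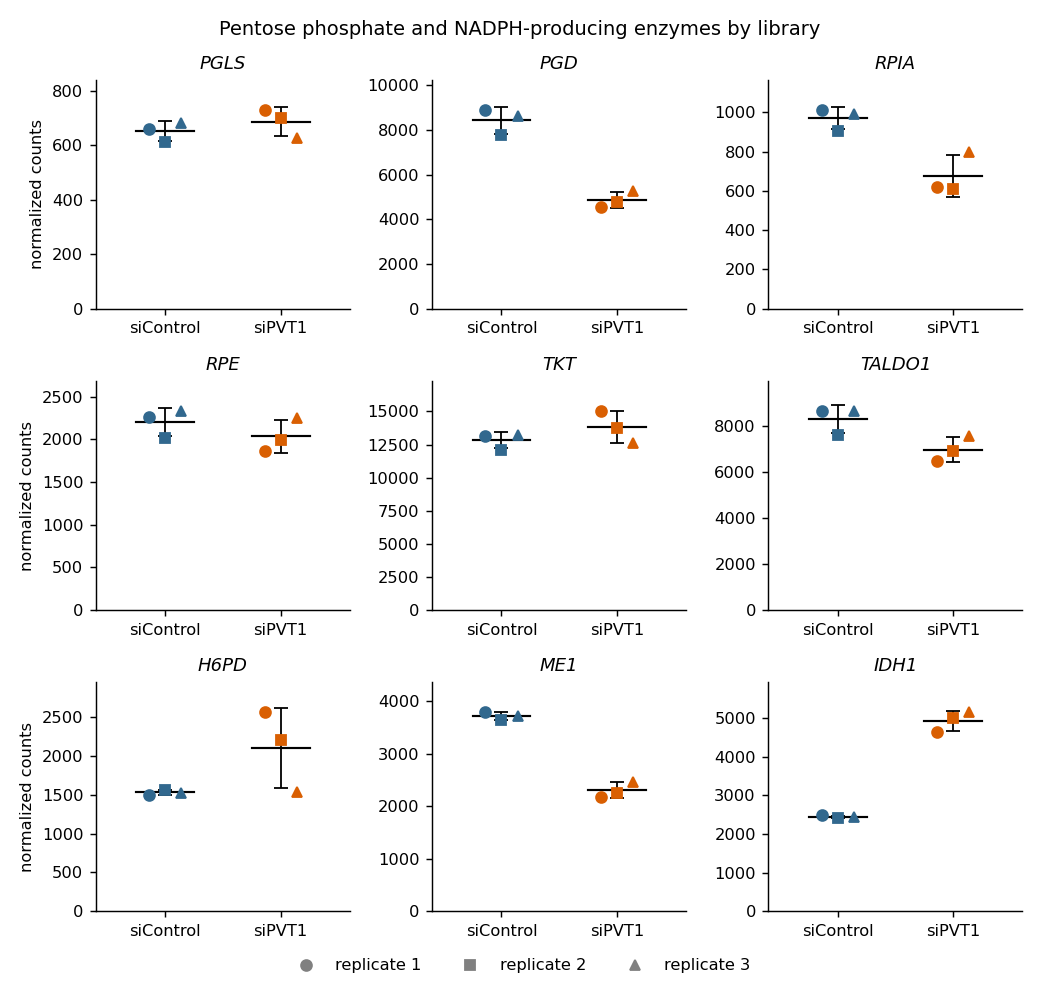
Normalized counts (vertical axes, from 0) of the 9 genes in the 3 siControl (blue) and 3 siPVT1 (orange) libraries. Symbols mark replicates, and the lines and bars are the mean and SD; IDH1 lies higher and PGD, ME1, RPIA and TALDO1 lie lower in every siPVT1 library than in any siControl library, while H6PD spreads from 1540.0 to 2561 in siPVT1.

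Among the NADPH producers outside the pathway, IDH1, which oxidizes isocitrate in the cytosol and peroxisome, had 2479.8, 2417 and 2432 normalized counts in siControl, in the order of the replicate numbers, and 4635, 4995 and 5152 in siPVT1. The lowest siPVT1 library thus lay far above the highest siControl library. Means were 2443 ± 32.9 and 4927 ± 265 (SD, n = 3 each). On the log2 scale IDH1 rose by 1.01 ± 0.061 SE. Its adjusted p was 6.08e-06. Here and below adjusted p-values come from the quasi-likelihood test of edgeR and were corrected over all genes tested after Benjamini and Hochberg. The value sits at the fold threshold. It was 0.999 in DESeq2, 0.86 with scaling by the total count and between 0.96 and 1.04 without 1 library, and the adjusted p stayed under 0.05 in each. IDH1-AS1, an antisense RNA that overlaps IDH1 by 968 bases, had 1 to 10 counts in a library.

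ME1, which converts malate to pyruvate in the cytosol, moved the other way. Its normalized counts were 3792, 3636 and 3717 in siControl and 2182, 2255 and 2470.3 in siPVT1, and the groups did not overlap. It fell by 38.0% (log2 fold change -0.69 ± 0.065 SE, adjusted p = 5.32e-05), and every alternative setting kept the call, with log2 fold changes from -0.84 to -0.67.

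H6PD, the enzyme of the endoplasmic reticulum, was called as higher (log2 fold change 0.46 ± 0.161 SE, adjusted p = 0.0381), and its siPVT1 libraries disagreed. It had 1499, 1560 and 1525 normalized counts in siControl (1528 ± 30.6, SD, n = 3) and 2561, 2201 and 1540.0 in siPVT1 (2101 ± 518). siPVT1 replicate 3 lay within the range of siControl and the others above it. The call was lost without any of the other 5 libraries (adjusted p from 0.0909 to 0.124), with log2 fold changes of 0.44, 0.48 and 0.45 without siControl replicates 1, 2 and 3, and 0.27 and 0.41 without siPVT1 replicates 1 and 2. It held without siPVT1 replicate 3 (0.62, adjusted p = 2.54e-05). Scaling by the total count gave 0.31 (adjusted p = 0.142).

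In the oxidative branch, the change was carried by PGD, the dehydrogenase that releases NADPH and ribulose 5-phosphate. It had 8909.6, 7758 and 8602 normalized counts in siControl and 4574, 4782 and 5269 in siPVT1. All siPVT1 libraries were below all siControl libraries, and it fell by 42.1% (log2 fold change -0.79 ± 0.078 SE, adjusted p = 6.67e-05). PGLS, the lactonase one step upstream, had 661, 611 and 683 normalized counts in siControl and 731, 698 and 627 in siPVT1. These groups overlapped (log2 fold change 0.071 ± 0.086 SE, adjusted p = 0.51), and its sign turned to -0.077 when libraries were scaled by the total count.

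In the non-oxidative branch, RPIA, the isomerase that yields ribose 5-phosphate, had 1014, 907 and 993 normalized counts in siControl and 623, 607 and 799 in siPVT1. It was lower in every siPVT1 library, and fell by 30.3% (log2 fold change -0.52 ± 0.114 SE, adjusted p = 0.00472). RPE, the epimerase that acts on the same substrate, had 2264, 2010.4 and 2332 normalized counts in siControl and 1868, 1990 and 2249 in siPVT1, and its groups overlapped (log2 fold change -0.11 ± 0.089 SE, adjusted p = 0.311). Without siPVT1 replicate 3 its log2 fold change was -0.21 (adjusted p = 0.0154) and with scaling by the total count -0.26 (adjusted p = 0.0234). It shrank to -0.068 without siPVT1 replicate 1 and to -0.075 without siControl replicate 3.

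Transaldolase and transketolase, which exchange carbon units with glycolysis, did not move together. TALDO1 had 8663, 7629 and 8649 normalized counts in siControl and 6465, 6899 and 7571 in siPVT1. The highest siPVT1 library came close to the lowest siControl library without reaching it, and TALDO1 fell by 16.1% (log2 fold change -0.25 ± 0.080 SE, adjusted p = 0.0256). The call was lost without siControl replicate 1 (-0.23, adjusted p = 0.0851), without siControl replicate 3 (-0.23, adjusted p = 0.0845) and without siPVT1 replicate 2 (-0.26, adjusted p = 0.0569). TKT had 13139, 12106 and 13207 normalized counts in siControl and 15043, 13786 and 12591 in siPVT1, with siPVT1 replicate 3 inside the range of siControl. The log2 difference of 0.11 ± 0.077 SE did not pass the test (adjusted p = 0.267). It was 0.15 without siPVT1 replicate 3 (adjusted p = 0.0301), 0.027 without siPVT1 replicate 1 and -0.042 with scaling by the total count.

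In 8 of the 9 genes, siPVT1 replicate 3 was the siPVT1 library nearest to the siControl mean, as it was in 50.3% of all genes tested. IDH1 was the exception and had its highest value there. PVT1 itself was lowest in that library, at 2062 normalized counts.

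**Figure D2:**
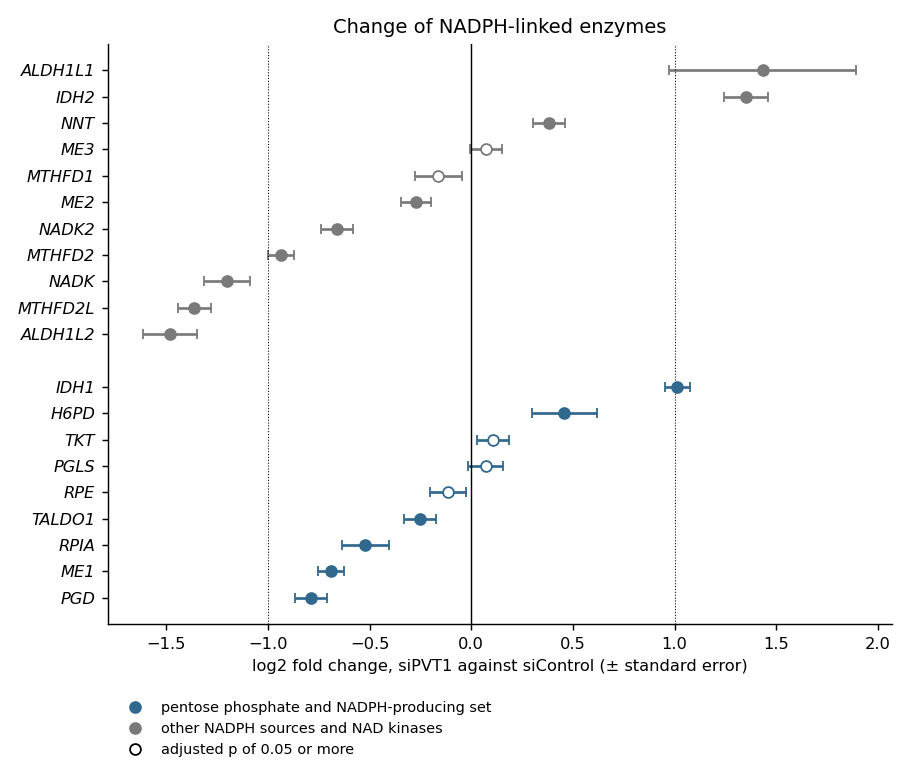
Log2 fold change (horizontal axis, siPVT1 against siControl, bars: standard error) of the 9 genes (blue) and of other NADPH sources and NAD kinases (grey), with open symbols for genes at an adjusted p of 0.05 or more and dotted lines at the fold threshold. IDH1 and its mitochondrial relative IDH2 lie at 1.01 and 1.35, and PGD and ME1 at -0.79 and -0.69.

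To set levels of different genes side by side, normalized counts were divided by the length of the canonical transcript. In siControl the order was TALDO1 (6934 ± 494 normalized counts per kb, SD, n = 3), TKT (4278 ± 206), PGD (3714 ± 263), ME1 (1113 ± 23.4), IDH1 (1054 ± 14.2), RPE (692 ± 53.3), PGLS (646 ± 36.3), RPIA (536 ± 31.2) and H6PD (167 ± 3.34). Only the ranges of RPE and PGLS overlapped between neighbours in this order. In siPVT1, IDH1 (2126 ± 114 per kb) moved next to PGD (2150 ± 157), and their ranges overlapped. ME1 (689.7 ± 44.9 per kb) moved down to the level of PGLS (680 ± 52.7) and RPE (640.1 ± 61.3), with overlapping ranges between neighbours. TALDO1, TKT, PGD, RPIA and H6PD kept their ranks. These levels take 1 transcript per gene, so that a gene whose cells use shorter or longer forms would be set too low or too high.

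The 3 cytosolic NADPH-producing enzymes PGD, ME1 and IDH1 were also summed, a choice made after their values were seen. Their sum was 6134, 5552 and 5955 normalized counts per kb in siControl and 4670, 4939 and 5286 in siPVT1. Every siPVT1 sum was below every siControl sum. IDH1 made up 17.9% ± 0.726 of the sum in siControl and 42.8% ± 0.792 in siPVT1 (SD, n = 3 each), PGD 63.1% ± 1.31 and 43.3% ± 0.636, and ME1 18.9% ± 0.59 and 13.9% ± 0.185. These are shares of transcripts and not of enzyme activity.

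**Figure D3:**
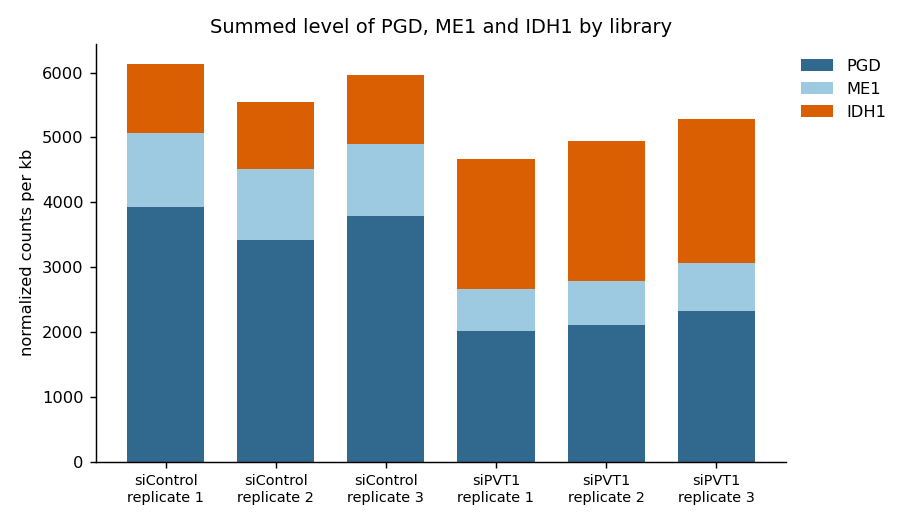
Summed level of PGD, ME1 and IDH1 (vertical axis, normalized counts per kb of canonical transcript) in each library, stacked by gene. The orange share of IDH1 grows from between 17.4% and 18.8% in siControl to between 42.0% and 43.6% in siPVT1 under a lower total.

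Ratios of 2 genes within a library do not depend on how libraries are scaled, and 5 pairs were compared. In each pair the siPVT1 libraries lay on one side of the siControl libraries (two-sided exact permutation test, p = 0.1 and adjusted p = 0.1 for each, the smallest p that 3 libraries against 3 allow). Each pair holds a gene whose groups did not overlap by itself (IDH1, ME1, PGD, TALDO1 or RPIA), as in 65.6% of all genes tested. The share over all gene pairs was not determined, so the number of separate pairs is no result about the set. PGD to H6PD, the cytosolic against the reticular enzyme, changed most, from a log2 ratio of 2.46 ± 0.132 in siControl to 1.24 ± 0.481 in siPVT1 (SD, n = 3 each). TKT to TALDO1 went from 0.63 ± 0.035 to 0.98 ± 0.243, and RPIA to RPE from -1.18 ± 0.046 to -1.60 ± 0.109. The pairs with a mitochondrial partner both fell. ME1 to ME2 went from 1.24 ± 0.046 to 0.82 ± 0.043 and IDH1 to IDH2 from 1.73 ± 0.099 to 1.40 ± 0.266. In the latter pair siPVT1 replicate 3, at 1.65, lay next to siControl replicate 3, at 1.66, so that the groups were barely apart. The difference of -0.33 between the groups became -0.20 without siPVT1 replicate 1.

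**Figure D4:**
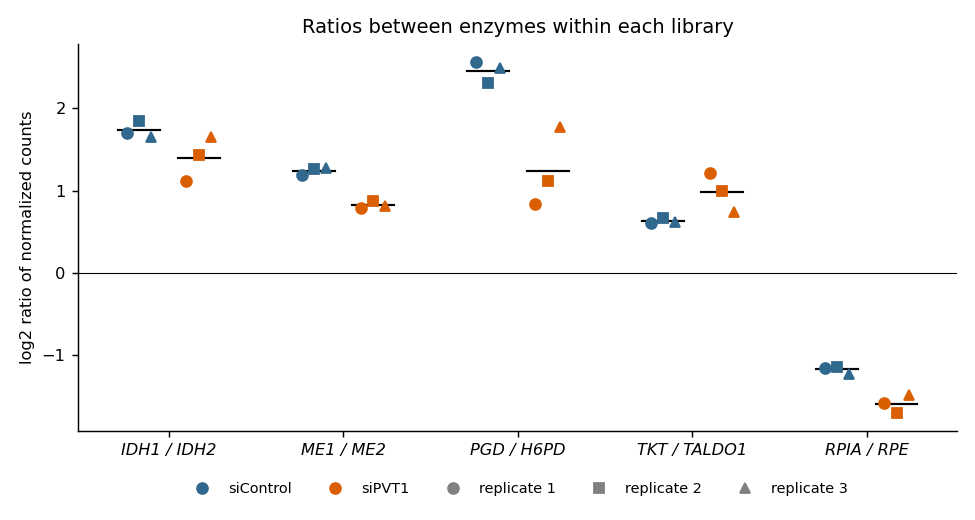
Log2 ratio of normalized counts between 2 enzymes (vertical axis) in each siControl (blue) and siPVT1 (orange) library, with symbols for replicates and lines for group means. The groups do not overlap in any of the 5 pairs, each of which holds a gene whose groups do not overlap by itself. PGD to H6PD shows the widest gap and the widest spread in siPVT1.

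Close relatives of the 9 genes were examined because reads can be divided between near-identical copies. The transketolase-like genes TKTL1 and TKTL2 had at most 1 and 0 counts, where 0 counts allow up to 3 in a library. RPEL1, a copy of RPE, had 3 to 12 counts and the pseudogene PGDP1 6 to 20. IDH2, the mitochondrial NADP-dependent isocitrate dehydrogenase, rose together with IDH1, from 762, 672 and 771 normalized counts to 2130.3, 1857 and 1640 (log2 fold change 1.35 ± 0.108 SE, adjusted p = 2.26e-05). Per kb, IDH1 and IDH2 together went from 1330.4 ± 31.6 to 2831 ± 27.4. Of the mitochondrial malic enzymes, ME2 was lower (-0.27 ± 0.074 SE on the log2 scale, adjusted p = 0.0141; adjusted p = 0.0611 without siControl replicate 1) and ME3 did not pass the test (0.071, standard error 0.079, adjusted p = 0.471). Summed per kb, ME1, ME2 and ME3 went from 1783 ± 41.3 to 1355 ± 40.2, and the share of ME1 in the sum from 62.4% to 50.9%.

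Of 11 other genes of the pathway and of ribose use 9 were tested, 3 were lower and 0 higher by edgeR, with a median log2 fold change of -0.34. The 33.3% that were lower stand beside 28.4% of all genes tested. By DESeq2 4 were lower and 0 higher, and at an unadjusted p under 0.05 4 were lower and 1 higher. The latter gene, SHPK, which makes sedoheptulose 7-phosphate, passed the test without siPVT1 replicate 3 (log2 fold change 0.30, adjusted p = 0.00793). DERA, the deoxyribose-phosphate aldolase, had a log2 fold change of -0.69 (standard error 0.088), TIGAR, which lowers fructose 2,6-bisphosphate and so favours the pathway, -0.60 (standard error 0.111), and PGM2, the phosphopentomutase, -0.36 (standard error 0.070). PRPS1, which makes the nucleotide precursor PRPP from ribose 5-phosphate, had 1327, 1360 and 1953 normalized counts in siPVT1 against 1887 to 2070.3 in siControl (adjusted p = 0.069). Without siPVT1 replicate 3 its log2 fold change of -0.34 became -0.56 (adjusted p = 9.06e-06).

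Among 11 other NADPH sources and NAD kinases, 3 were higher and 6 lower, with a median of -0.27. These are 27.3% and 54.5%, against 29.5% and 28.4% of all genes tested. Beside IDH2, the higher genes were the mitochondrial transhydrogenase NNT (log2 fold change 0.38, standard error 0.079) and ALDH1L1, which rests on 2 to 4 counts in siControl and 6 to 9 in siPVT1 and was not called by DESeq2 (adjusted p = 0.144). The mitochondrial folate enzymes in this list fell. Their log2 fold changes were -1.48 for ALDH1L2 (standard error 0.131), -1.36 for MTHFD2L (standard error 0.081) and -0.94 for MTHFD2 (standard error 0.064). NADK, which makes NADP in the cytosol, went down from 1298 ± 65.8 to 563 ± 89.2 normalized counts (SD for n = 3), and mitochondrial NADK2 from 1054 ± 71.5 to 667 ± 34.8. The cytosolic folate enzyme MTHFD1 did not pass the test (log2 fold change -0.16, adjusted p = 0.258), but was lower without siPVT1 replicate 3 (-0.32, adjusted p = 0.00129).

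A further list held genes of glucose 6-phosphate entry and of its supply to the endoplasmic reticulum, with the steroid reductase HSD11B1 counted among them. Of 8 tested, 6 were higher and 2 lower (75% and 25%, against 29.5% and 28.4% of all genes tested), with a median of 0.76. HK2, a hexokinase, rose from 1553 ± 16.4 to 6661 ± 1735 normalized counts and PGM1, which links glycogen to glucose 6-phosphate, from 1165 ± 53.7 to 5104 ± 161 (SD, n = 3 each). The hexokinase-related HKDC1 fell (log2 fold change -2.70, standard error 0.119). Around H6PD in the endoplasmic reticulum, the transporter SLC37A4 was higher (0.59, standard error 0.088), the phosphatase G6PC3, which competes for the same sugar, was lower (-1.07, standard error 0.068), and HSD11B1, the main user of the NADPH made by H6PD, rose from 851, 767 and 898 to 5222, 4841 and 3987 normalized counts (log2 fold change 2.48, standard error 0.113). HSD11B1 and H6PD shared their lowest siPVT1 library, replicate 3. That library was the lowest of siPVT1 in 4 of the 8 genes of this list and in 7517 of the 19008 genes tested.

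Processes that draw on NADPH were described by 2 lists, which also hold genes that do not use it themselves, such as SRXN1, PRDX1 and ACACA. In redox and carbonyl reduction 7 of 12 genes were lower and 1 higher, with a median of -0.30. These are 58.3% and 8.33%, against 28.4% and 29.5% of all genes tested. With scaling by the total count 10 were lower and 0 higher, where 36.2% and 23.6% of all genes tested were. SRXN1, which repairs oxidized peroxiredoxin, fell from 9491 ± 399 to 1570 ± 259 normalized counts and TXNRD1, thioredoxin reductase, from 72655 ± 3398 to 23405 ± 4771 (SD, 3 libraries each). In lipid and sterol synthesis 10 of 10 genes were higher (9 with scaling by the total count), against 29.5% of all genes tested. Their median was 1.08, and 0 were lower at an unadjusted p under 0.05 or by DESeq2. DHCR7, which makes cholesterol from its last precursor, rose by 2.09 on the log2 scale (standard error 0.074).

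The 2 regulatory groups to which PGD, ME1 and IDH1 belong were set beside them. Among 11 other NRF2 targets 10 were lower (11 with scaling by the total count) and 0 higher, also at an unadjusted p under 0.05 and by DESeq2, with a median of -2.04. The 90.9% that were lower stand beside 28.4% of all genes tested. SLC7A11, the cystine importer, had a log2 fold change of -3.29 (standard error 0.128) and OSGIN1 of -3.10 (standard error 0.108). Among 12 other SREBP targets 12 were higher (11 with scaling by the total count), against 29.5% of all genes tested, with a median of 1.88. INSIG1, which retains the SREBP system in the endoplasmic reticulum, had a log2 fold change of 3.05 (standard error 0.088). The falls of PGD and ME1 were smaller than the median fall of the NRF2 list. The rise of IDH1 was smaller than the median rise of the SREBP list, and TKT was not called. PGD, ME1 and IDH1 belong to both groups, and the part of either factor in their changes was not tested. In siPVT1 replicate 3, 11 of the 12 SREBP targets, 8 of the 11 NRF2 targets and 6 of the 9 enzymes (IDH1, PGD, ME1, RPIA, RPE and TALDO1) had their highest siPVT1 value, against 41.3% of all genes tested. These lists were written with earlier results of these data known and are no independent evidence.

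**Figure D5:**
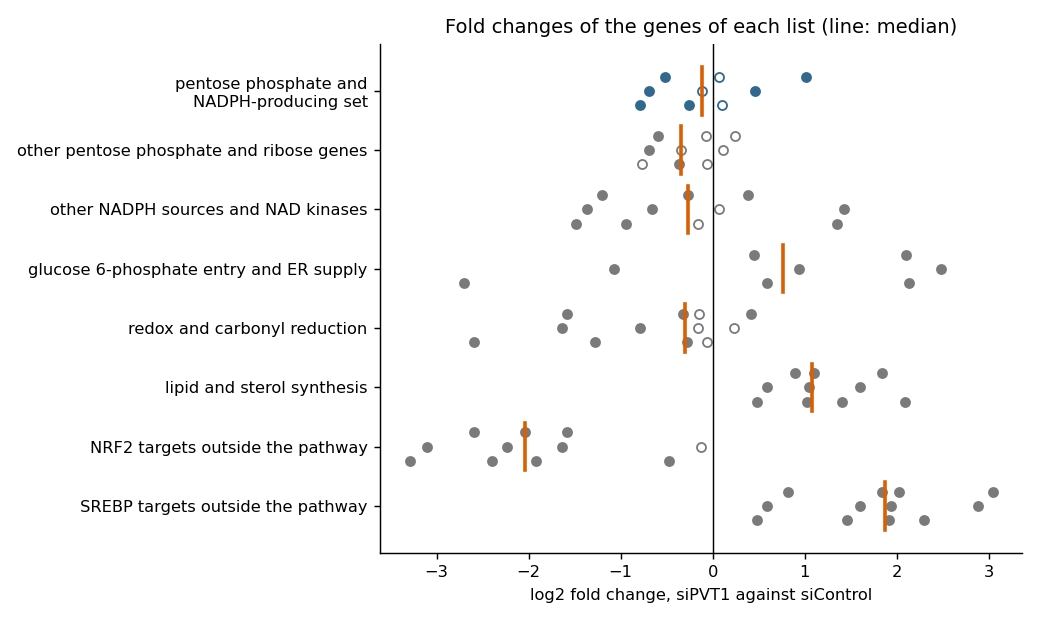
Log2 fold change (horizontal axis, siPVT1 against siControl) of every tested gene of the 9-gene set (blue) and of 7 related lists (grey), filled at an adjusted p under 0.05, with the list median as an orange line. The 9 genes spread on both sides of 0, from -0.79 to 1.01, a range that some NRF2 targets and some SREBP targets share, and their median of -0.11 lies between the medians of those lists, -2.04 and 1.88. Some genes, such as TXNRD1, stand in more than 1 list.

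IDH1, the gene of the set with the largest change, was compared with all other tested genes by the Pearson correlation of log2 normalized counts over the 6 libraries. The most alike were LPIN1, a phosphatidate phosphatase (r = 0.9998), ACSL3, an acyl-CoA synthetase (r = 0.9997), and NAB1, a corepressor of EGR factors (r = 0.9997). Their log2 fold changes were 1.89, 1.57 and 0.84. The correlation is carried by the difference between the groups, and 555 genes had an r above 0.99.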

How the data were processed

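Libraries were made by the authors with an mRNA kit from SK-OV3 RNA and sequenced as 75-base single-end reads. Per the labels and methods, the authors aligned reads with STAR 2.7.3a to GENCODE v35 (GRCh38.p13) and counted them with Salmon 0.14.1. The deposited values are whole-number estimated counts for each symbol and were not normalized. The strand setting is not given in the sources used here, so counts of overlapping genes and close copies are uncertain.

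The 19008 genes that reached 5 normalized counts in 3 or more libraries were tested with edgeR 4.0.16 in R 4.3.3 (TMM, quasi-likelihood test, siRNA as the only term), and p-values were adjusted over all of them after Benjamini and Hochberg. Each SE was derived from the fitted change and its F statistic. Ratios within libraries used a pseudocount of 0.5, and likeness to IDH1 one of 1. The test was checked on simulated counts. Gene positions, exons and transcript lengths are from GENCODE v44, promoters from RefSeq.

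The alternatives were DESeq2 1.42.0, its size factors, total counts, no filter, filterByExpr, the replicate number as a block and each library left out. The genes named are the 9 of the set, the 2 with the largest change in each list, close paralogs and the 3 genes most like IDH1, while TIGAR, PGM2, PRPS1, SHPK, MTHFD2L, MTHFD2, MTHFD1, NNT, NADK, NADK2, HK2, PGM1, G6PC3, SLC37A4 and the markers were chosen after their values were seen. Some genes that this rule names are not reported here. The set and lists were chosen with earlier results of these data known.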

Additional observations from a re-analysis of the deposited data

How the results depend on the processing

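Over 12 alternatives for each of the 9 genes (108 in all), 94 kept direction and call. The calls of IDH1, PGD, ME1 and RPIA were kept in all 12. Calls were lost in 9 cases, for H6PD and TALDO1, and gained in 3, for RPE and TKT. Scaling by the total count reversed 2 genes that had not passed the test, PGLS (-0.077) and TKT (-0.042). The number of higher genes at an adjusted p under 0.05 was 2 in the main comparison, 1 with scaling by the total count and 1 to 3 without 1 library. The number past both thresholds was 1, and 0 with DESeq2, with its size factors and with scaling by the total count, and 0 to 1 without 1 library, because IDH1 sits at the threshold. Causes of the other changes were not tested. No setting gave a lower gene past both thresholds, and the number of lower genes was 3 to 5. With the replicate number as a block 2 genes were higher and 4 lower, as without it, and deviations of libraries with the same number correlated at -0.032, 0.021 and 0.00086, so the numbers were not taken to pair the libraries. For the 5 ratios within libraries all 40 alternatives kept their direction and moved by less than the larger of the 2 group SDs, though IDH1 to IDH2 ranged from -0.46 to -0.20 without 1 library, and the exact sign-flip test over the blocks gave p = 0.25, the smallest that 3 pairs allow. With 3 libraries per group, differences of the size seen for PGLS, RPE and TKT, with standard errors of 0.086, 0.089 and 0.077, could not be told from 0, which does not show that these genes did not change. Among 168 counts over the other lists, 166 stayed within 1.5 times.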
